A study of Mus musculus with 72 samples.

Results

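The Tmem genes are named for the predicted membrane-spanning stretches of the proteins they encode. Protein-coding genes whose symbol is Tmem followed by a number were taken, with a mean of at least 2000 sequenced T positions per whole-cell library. This gave 141 of the 239 protein-coding Tmem genes in the count files, which hold 51826 genes, and 10799 protein-coding genes of any name met the same limit. The mean T count of the 141 genes had a median of 18421 and reached 307581 for Tmem131. Just inside the limit were Tmem253 with 2364, Tmem42 with 2246 and Tmem125 with 2006 T positions, and just outside it were Tmem241 with 1990, Tmem158 with 1758 and Tmem246 with 1754.

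The symbol records only a predicted membrane span and does not describe a family by descent or function. Proteins that enter the secretory pathway are made by ribosomes bound to the endoplasmic reticulum (ER), since a hydrophobic signal or membrane span emerging from the ribosome is held by the signal recognition particle, which docks it at the ER. Their mRNAs therefore sit on a membrane while they are translated. Most mitochondrial membrane proteins, and tail-anchored proteins whose single span lies at the end of the chain, are instead finished in the cytosol and inserted later. The Tmem genes hold all of these kinds, among them subunits of ER enzymes, Golgi and lysosomal proteins, components of the ciliary gate and proteins of the inner mitochondrial membrane.

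Mouse embryonic stem cells of the line E14TG2a, without any genetic change named in the labels, were grown in medium with 2 kinase inhibitors and LIF and labeled with 4-thiouridine (4sU), a uridine analog built into new RNA and read as T to C changes after alkylation (SLAM-seq). Each culture was split into whole cells and into cytosol, membrane and nucleus by stepwise detergent extraction with cycloheximide present, and poly(A) RNA of each was sequenced with a stranded kit. The membrane fraction holds the ER together with mitochondria, and the nucleus is what both detergents leave behind. Labeling lasted 15, 20, 30, 40, 60 or 120 min, in 6 replicates passaged independently. Each fraction had 16 libraries in the comparisons: 15 and 30 min in replicates 1 and 2, 20 min in replicates 1 to 4, 40 min in replicates 3 and 4, 60 min in replicates 3 to 6, and 120 min in replicates 5 and 6. The labels give 500 µM 4sU for 15 to 40 min and 100 µM for 60 and 120 min, whereas the methods differ from them for 60 and 120 min of replicates 3 and 4. The 8 libraries of 120 min of replicates 3 and 4 were set aside, because the study left out labeling with 500 µM beyond 60 min. This choice takes 500 µM as their dose, although their labels give 100 µM. The 60 min libraries of these replicates were kept. Cells without 4sU were not analysed here, so whether sequencing mismatches added to the shares of new RNA was not tested.

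The libraries held 13185351 to 52975732 reads assigned to genes. Sums are given as length-normalized expression, scaled to the same total in each library. In whole cells the 8 stem cell markers summed to between 2970 and 7069, against 1.07 to 5.18 for the 5 primitive endoderm markers, 3.91 to 13.6 for the 5 fibroblast markers, among which Dcn had a median of 0, and 30.9 to 115 for the 4 neural markers, of which Tubb3 alone had a median of 52.2. All 6 mRNAs of ER, lysosomal and surface proteins used as fraction markers were higher in membrane than cytosol, by a log2 difference of 3.03 to 5.23. Of the 6 cytosolic markers, Gapdh and Eef1a1 were lower in membrane and the other 4 lay between -0.38 and -0.30. All 4 nuclear RNAs used as markers were higher in nucleus than in whole cells. Of these, Malat1 (1.51) and Kcnq1ot1 (2.43) were also higher in membrane than cytosol, whereas Neat1 (-0.57) and Meg3 (-0.34) had no call. Whether nuclear RNA in the membrane fraction added to the read differences below was not tested. Whole-cell replicate 6 stood apart in its shares. The median share of new RNA over the Tmem genes in whole cells of replicate 6 was 42.5% at 60 min but 18.5% at 120 min, whereas replicate 5 had 21.7% and 43.1%. Over all genes replicate 6 had 37.4% and 17.5%. Whether these libraries carry each other's labeling time was not tested, and if they do, the values given for replicate 6 at 60 min belong to 120 min. For this reason whole-cell shares are given below with and without it. The share tests between fractions fit all libraries together, so the whole-cell libraries of replicate 6 also enter the spread those tests use. How far they widened it was not tested.

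Because a membrane span is what the genes are named for, hydrophobic stretches of coding sequence are shown first. Such a stretch can be a membrane span or a hydrophobic signal near the start of the protein, and the score does not separate them. For each gene, windows of 19 codons were scored for mean Kyte-Doolittle hydropathy, and overlapping windows of at least 1.6 were joined to a hydrophobic stretch. Printed is the most hydrophobic window of the first stretch, 57 bases of coding strand from GENCODE vM21 on GRCm38 (mm10), with capitals marking T at the second base of a codon. Codons with T there encode phenylalanine, leucine, isoleucine, methionine or valine, the hydrophobic residues of which membrane spans are built. Over 132 such windows the median was 11 of 19 codons, with a range of 6 to 15. The first 3 genes were far higher in membrane than cytosol, Tmem199 was close to even, and the last 2 encode mitochondrial proteins.
Tmem109, an ER ion channel protein (chr19:10874383-10874439, minus strand, codons 14 to 32, 12 of 19): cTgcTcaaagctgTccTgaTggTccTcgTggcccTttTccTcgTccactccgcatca
Tmem59, a Golgi and endosomal protein (chr4:107197537-107197593, plus strand, codons 247 to 265, 10 of 19): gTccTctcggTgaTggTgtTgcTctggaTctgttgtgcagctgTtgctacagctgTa
Tmem97, the sigma-2 receptor of the ER (chr11:78543496-78543552, minus strand, codons 69 to 87, 10 of 19): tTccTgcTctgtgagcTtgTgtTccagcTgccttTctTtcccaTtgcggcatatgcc
Tmem199, an assembly factor of the vacuolar proton pump (chr11:78508361-78508417, minus strand, codons 145 to 163, 11 of 19): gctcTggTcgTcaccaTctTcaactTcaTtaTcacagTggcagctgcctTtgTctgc
Tmem126a, of the inner mitochondrial membrane (chr7:90451563-90451619, minus strand, codons 108 to 126, 11 of 19): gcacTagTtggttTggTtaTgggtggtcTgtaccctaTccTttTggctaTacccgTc
Tmem242, of the inner mitochondrial membrane (chr17:5439571-5439627, minus strand, codons 31 to 49, 8 of 19): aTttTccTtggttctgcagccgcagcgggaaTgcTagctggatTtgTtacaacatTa
All 6 windows lie within a single coding exon. The stretch of Tmem97 had 10 such codons and that of Tmem126a had 11, so the count of these codons did not order the genes by their place in the cell.

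Most Tmem mRNAs were found with the membrane. Of 138 Tmem genes tested, 118 were higher in membrane than in cytosol reads, against 24.1% of all 16093 genes, and 2 were lower, against 12.9%. A call needed an adjusted p under 0.05 in edgeR's quasi-likelihood test, with Benjamini-Hochberg adjustment over all genes, and an absolute log2 difference over 0.5. The median log2 difference was 2.39 for Tmem genes and -0.16 for all genes tested, and the Tmem genes ranged from -0.64 to 4.57. Every membrane library lay above every cytosol library for 100 Tmem genes (14.4% of all genes), and the reverse held for Tmem263 alone (1.34%). Within cultures, 122 genes were higher in membrane in all 16 and 4 were lower in all 16, namely Tmem183a, Tmem29, Tmem65 and Tmem263. These counts within cultures were not taken over all genes, so how unusual they are cannot be told. When the classes of the study were formed, 81 genes had a length-normalized expression in membrane of at least 3 times that in cytosol (14.8% of all genes), 29 lay between 1.5 and 3, and 28 were below 1.5 (79.5%). Read differences compare fractions after scaling to each library, so that more RNA in a fraction and more cells cannot be told apart. With scaling by library size in place of TMM the median of all genes moved from -0.16 to -0.47 and the Tmem calls to 113 higher and 4 lower.

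**Figure D1:**
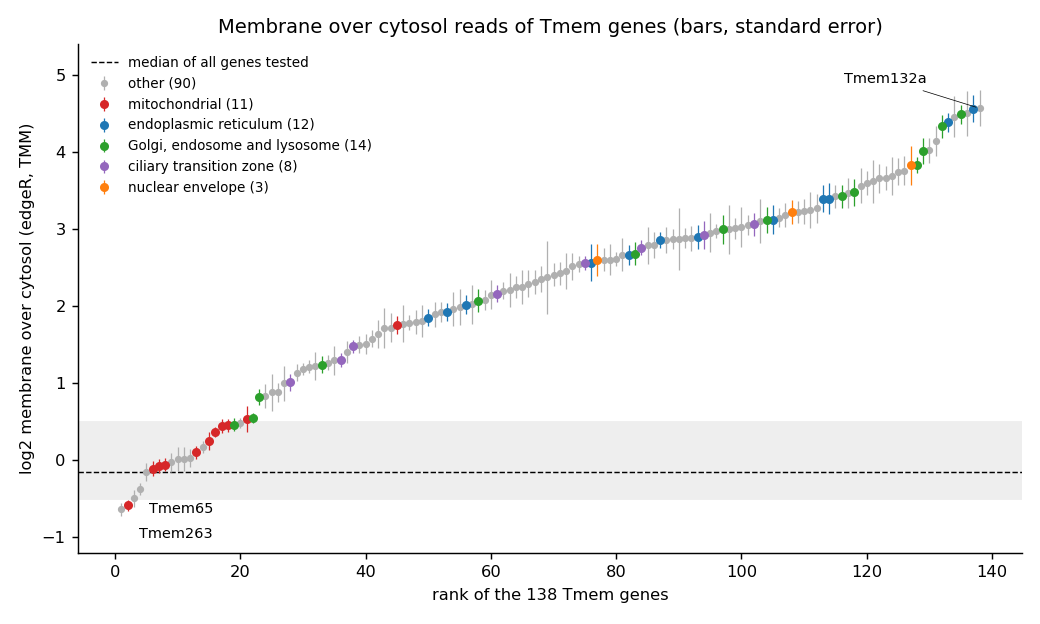
Log2 membrane over cytosol reads (y axis) of the 138 Tmem genes tested, ranked from lowest to highest (x axis), with bars of 1 standard error and colours for the known place of the protein. The dashed line is the median of all genes (-0.16) and the grey band marks differences of up to 0.5, in which most mitochondrial genes sit, while ER genes lie at 1.85 or above.

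The Tmem genes of the ER were all on the membrane side. All 12 were called higher, against 24.1% of all genes, with a median log2 difference of 2.88 and a range of 1.85 to 4.56. Tmem109 was counted at a lowest, median and highest of 0.782, 1.96 and 3.47 TMM-normalized CPM (counts scaled to library size) in the 16 cytosol libraries and 33.3, 41.5 and 71.1 in the 16 membrane libraries. These ranges were far apart, and the membrane was higher by 17.5 to 51.3 times within cultures. The log2 difference was 4.56 ± 0.17 (SE, adjusted p = 8.10e-35, edgeR). Tmem97 had 11.2, 16.3 and 22.8 CPM in cytosol against 229, 311 and 497 CPM in membrane, again with no overlap (4.38 ± 0.12, adjusted p = 2.70e-42). Per length it was, with Tmem59, the most abundant Tmem mRNA of whole cells, at median length-normalized expressions of 247 and 246, where the median Tmem gene had 20.4.

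Components of ER complexes followed with smaller differences. Tmem147, a subunit of the multipass translocon, stood at 2.86 ± 0.10, Tmem208, which belongs to an alternative route of protein targeting to the ER, at 2.67 ± 0.13, and Tmem41b, a lipid scramblase needed for autophagy, at 3.39 ± 0.17. The lowest of the ER genes was Tmem258, a small subunit of the oligosaccharyltransferase that puts sugars on nascent proteins. Its counts were 32.5, 41.0 and 48.1 CPM in cytosol and 102, 141 and 200 CPM in membrane. The groups did not overlap, and the log2 difference was 1.85 ± 0.11 (adjusted p = 2.20e-24, edgeR). The cation channels Tmem38a and Tmem38b, which balance calcium release from the ER, stood at 3.12 ± 0.19 and 1.93 ± 0.11, a difference between genes that was not tested.

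Genes of the Golgi, endosomes and lysosomes had a median log2 difference of 3.06 and spanned most of the range, with 13 of 14 higher, against 24.1% of all genes. Tmem59 was counted at 14.2, 19.8 and 25.4 CPM in cytosol and 324, 424 and 617 CPM in membrane. The membrane was higher by 17.5 to 32.0 times in every culture, and the log2 difference was 4.49 ± 0.12 (adjusted p = 3.79e-42, edgeR). Close behind were the lysosomal Tmem9 (4.33 ± 0.15) and the Golgi manganese and calcium transporter Tmem165 (4.01 ± 0.17, with an exon shared on the same strand with the pseudogene Apc-ps1). Tmem30a, the subunit that lets lipid flippases leave the ER, had 6.65, 11.6 and 18.5 CPM in cytosol and 63.9, 120 and 208 CPM in membrane (3.48 ± 0.17).

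The other end of this group was near even. Tmem167 and Tmem167b, small proteins of the secretory pathway, stood at 0.82 ± 0.10 and 0.55 ± 0.06. Both calls were lost with scaling by library size (0.49 for Tmem167 and 0.24 for Tmem167b), and that of Tmem167b also without replicate 2 (0.38), without replicate 5 (0.42) and in replicates 5 and 6 alone (0.36). Tmem199 had 26.1, 33.6 and 40.3 CPM in cytosol and 33.6, 46.7 and 66.0 CPM in membrane. The ranges overlapped, and the difference of 0.46 ± 0.08 (adjusted p = 1.37e-06, edgeR) was below the limit of 0.5. It passed that limit without replicate 1 (0.55).

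All 8 measured genes of the ciliary transition zone, the gate at the base of the cilium that is built from Tmem proteins and others, were higher in membrane, against 24.1% of all genes. They ran from Tmem107 (1.01 ± 0.11) to Tmem17 (3.06 ± 0.15). Tmem67, a receptor-like protein of the gate, stood at 2.92 ± 0.18, Tmem138 at 2.76 ± 0.10, Tmem231 at 2.55 ± 0.09, Tmem218 at 2.16 ± 0.11, Tmem237 at 1.48 ± 0.09 and Tmem216 at 1.30 ± 0.10. Tmem138 and Tmem216, whose genes lie side by side and are mutated in the same ciliary disease, were not tested against each other. The last gene of this list, Tmem80, did not reach the limit of T positions. The 3 nuclear envelope genes were higher as well, at 3.82 ± 0.25 for Tmem43, 3.22 ± 0.15 for Tmem209 and 2.60 ± 0.20 for Tmem201. The inner nuclear membrane is continuous with the ER.

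**Figure D2:**
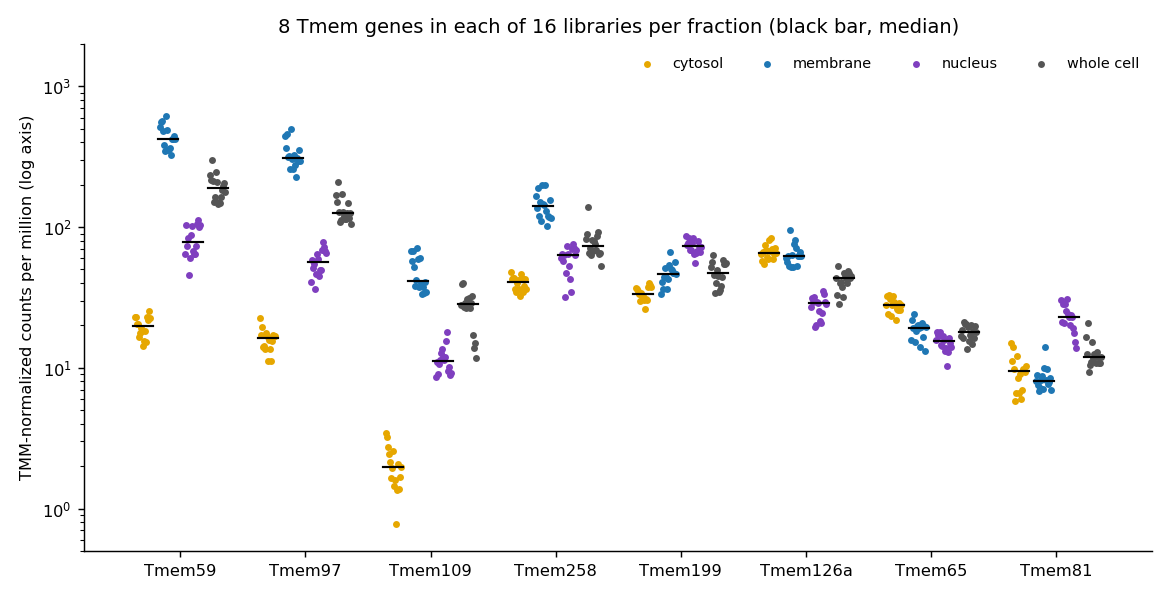
TMM-normalized CPM, read counts scaled to library size (log axis), of 8 Tmem genes in each of the 16 libraries of cytosol, membrane, nucleus and whole cells, with black bars at the medians. Cytosol and membrane are far apart for Tmem59, Tmem97 and Tmem109, and overlap for Tmem126a, while Tmem65 is lower in membrane and Tmem199 and Tmem81 are highest in the nucleus.

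The mitochondrial genes had smaller differences, with a median of 0.25 that became -0.03 with scaling by library size. Of 11 measured genes 2 were higher in membrane, against 24.1% of all genes, 1 was lower, against 12.9%, and 8 had no call. At an unadjusted p under 0.05, without the limit on size, 6 were above 0 and 1 below. The count of higher genes was 4 without replicate 4 and in replicates 1 and 2 or 3 and 4 alone, and 1 without replicate 2, without replicate 5 and with scaling by library size. Tmem126a, an assembly factor of respiratory complex I, was counted at 54.8, 65.7 and 83.3 CPM in cytosol and 52.0, 62.1 and 95.4 CPM in membrane. The 2 ranges nearly coincided, the membrane was higher in 4 of 16 cultures, and the difference was -0.06 ± 0.08 (adjusted p = 0.556, edgeR). Its paralog Tmem126b differed by 0.10 ± 0.09 (adjusted p = 0.302), Tmem242, which helps to assemble the ATP synthase, by -0.08 ± 0.09 (adjusted p = 0.478), and Tmem11, of the inner membrane, by -0.11 ± 0.10 (adjusted p = 0.376). The signs of Tmem126a, Tmem126b and Tmem242 turned when single replicates were left out.

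Tmem65, an inner mitochondrial membrane protein of sodium and calcium exchange, was the mitochondrial gene lowest in membrane. It had 21.8, 27.8 and 33.1 CPM in cytosol and 13.1, 19.2 and 24.1 CPM in membrane. The membrane was lower in all 16 cultures, at 0.495 to 0.890 of the cytosol, and the log2 difference was -0.58 ± 0.08 (adjusted p = 4.39e-10, edgeR). In replicates 1 and 2 alone it was -0.41 and not called.

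At the other end Tmem14c, a porphyrin transporter of heme synthesis, was counted at 36.8, 49.0 and 60.2 CPM in cytosol and 106, 156 and 214 CPM in membrane (1.76 ± 0.12, adjusted p = 5.79e-22). Its ranges did not overlap. The other call was Tmem160 with 0.54 ± 0.17, close to the limit and lost without replicate 2 (0.46), without replicate 5 (0.33) and with scaling by library size (0.22). In nucleus over whole cells 3 of the 11 mitochondrial genes were lower, against 13.4% of all genes, among them Tmem126a with a log2 difference of -0.62 ± 0.08. This count was 0 with scaling by library size, 1 in replicates 5 and 6 alone and 5 in replicates 3 and 4 alone.

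Among the remaining 90 genes tested, 80 were higher in membrane, against 24.1% of all genes, 1 was lower, against 12.9%, and 9 had no call, with a median of 2.36. Tmem132a led all Tmem genes. It lies at chr19:10857822-10869940 on the minus strand and had 0.684, 3.25 and 4.44 CPM in cytosol against 28.9, 66.6 and 94.3 CPM in membrane (4.57 ± 0.23, adjusted p = 7.28e-28, edgeR). Tmem88, an inhibitor of Wnt signaling that binds Dishevelled, was at 0.216, 0.847 and 1.29 CPM in cytosol and 4.73, 19.5 and 30.5 CPM in membrane (4.5 ± 0.29). Tmem37, a channel-related protein, and Tmem50a followed with 4.46 ± 0.27 and 4.14 ± 0.20.

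Several of these genes have a known role and were chosen for it after the values were seen. Tmem131, which helps to secrete collagen, stood at 3.66, the mechanosensitive channels Tmem63b and Tmem63a at 3.68 and 2.37, the acid-activated chloride channel Tmem206 at 3.42, and Tmem189, the desaturase of ether lipids, at 2.88 (with an exon shared with Gm20431). All were called higher in membrane. Tmem135, a protein of peroxisomes and mitochondria, had 0.48 and no call.

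Tmem263 was the Tmem gene lowest in membrane and the only one whose 16 cytosol libraries all lay above its 16 membrane libraries. It had 39.5, 44.5 and 51.8 CPM in cytosol and 22.8, 27.9 and 37.4 CPM in membrane (-0.64 ± 0.09, adjusted p = 1.84e-09, edgeR), and no call in replicates 1 and 2 alone (-0.48). Tmem29 (-0.49 ± 0.11) and Tmem183a (-0.37 ± 0.08) were lower in membrane in all 16 cultures and below the limit for a call. Tmem183a was an abundant member, with 134, 163 and 189 CPM in cytosol and 111, 124 and 145 CPM in membrane. Both passed the limit without replicate 2 (-0.67 for Tmem29 and -0.52 for Tmem183a) and without replicate 5 (-0.68 and -0.54).

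Genes that share a symbol number were closer to each other than Tmem genes were on the whole. There were 19 such families with 39 genes tested, and the absolute difference between log2 values of the 21 pairs had a median of 0.745, against 1.25 for all 9453 pairs of Tmem genes. These families were formed after the values were seen, and they were not tested. Tmem30a and Tmem30b, alternative flippase subunits, stood at 3.48 and 3.47, and Tmem120a and Tmem120b at 2.61 and 2.60. The widest pair was Tmem131, at 3.66, and Tmem131l, at 1.99. The ER membrane protein complex, which inserts many membrane spans, served for comparison, and 7 of 7 of its membrane subunits were higher in membrane, from 0.63 for Emc6 to 3.83 for Emc3. Of its soluble subunits Emc2 was lower (-0.56), whereas Emc8 (0.22) and Emc9 (0.17) had no call.

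For 3 Tmem genes no comparison by reads was possible. Tmem254b and Tmem254c are near-identical copies and had reads at or near 0 in the gene counts although 6026 and 15980 T positions were counted for them on average, and Tmem265, with 7247 T positions, shares an exon with Gm42715 on the same strand. In all, 9 Tmem genes overlap an exon of another gene on the same strand and 50 on the opposite strand. The strand setting of the read counting is not given in the sources used here.

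The number of hydrophobic stretches, membrane spans and signals alike, went with the difference between membrane and cytosol. The 8 Tmem genes without any stretch at the limit used had a median log2 difference of 0.07, those with 1 stretch 1.49, those with 2 stretches 2.55, those with 3 stretches 2.58, and those with 4 or more 2.79. Over all protein-coding genes tested the medians were -0.29, 0.40, 2.32, 2.39 and 2.62 in the same order. Across the 138 Tmem genes Spearman's rho between the number of stretches and the log2 difference was 0.358, a description over genes that are no independent replicates. Without a stretch were Tmem11, Tmem29, Tmem70, Tmem102, Tmem126b, Tmem135, Tmem209 and Tmem263, and of these only Tmem209 was called higher in membrane, at 3.22. Of the mitochondrial genes, Tmem11, Tmem70 and Tmem126b had no stretch. Tmem14c, Tmem126a, Tmem143, Tmem177, Tmem186 and Tmem242 had 1, and Tmem65 and Tmem160 had 2. The number of stretches and the mitochondrial place were thus not separated.

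The place of the first stretch, be it a membrane span or a signal, was compared as well. It began in the first 50 residues for 90 Tmem genes, of which 89 were tested, with a median log2 difference of 2.55 and 85 called higher, and after residue 50 for 37, with a median of 2.56 and 29 called higher. Of all genes tested 24.1% were called higher, and this share was not taken by the place of the stretch. Spearman's rho between the start of the first stretch and the log2 difference was -0.154 across 130 Tmem genes. For all protein-coding genes those medians were 2.65 and 0.27, and the difference between the sets was not tested. In 6 Tmem genes the first stretch began in the last 50 residues, as in tail-anchored proteins, with a median of 1.77 over the 4 tested. Of these Tmem14a (2.31), Tmem222 (1.79) and Tmem14c (1.76) were called higher and Tmem256 (0.02) was not, and Tmem254b and Tmem254c had no value. The encoded proteins were 72 to 1877 residues long with a median of 271, against 462 for all protein-coding genes tested.

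**Figure D3:**
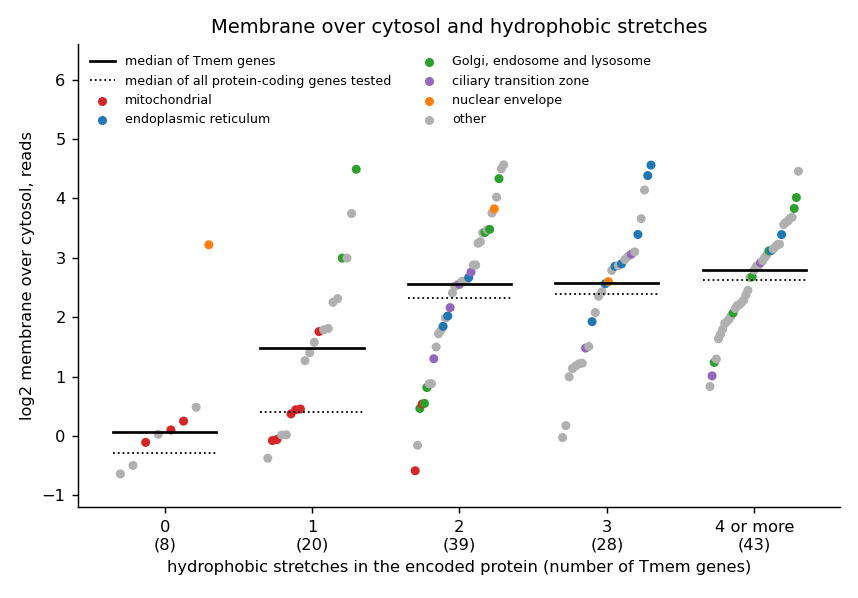
Log2 membrane over cytosol reads (y axis) of 138 Tmem genes by the number of hydrophobic stretches of the encoded protein (x axis), with points coloured by known place, solid lines at the Tmem medians and dotted lines at the medians of all protein-coding genes. Tmem genes with 2 or more stretches have medians of 2.55 to 2.79, whereas genes with none have 0.07 and include 1 outlying nuclear envelope gene, Tmem209.

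Few Tmem mRNAs were higher in nucleus than in whole cells. Compared with whole cells, 3 of 138 were higher in nucleus reads, against 14.5% of all genes, and 58 were lower, against 13.4%, and the median log2 difference was -0.46 against 0.04 for all genes (same edgeR test and limits). The Tmem genes were chosen by their T counts in whole cells, the reference of this comparison, whereas all genes were not. How far this choice alone lowers nucleus over whole cells was not tested. No Tmem gene had all nucleus libraries above all whole-cell libraries (0.926% of all genes), 8 had an unadjusted p under 0.05 and a positive difference, and 10 had all whole-cell libraries above all nucleus libraries (1.8%). The count of lower genes was 98 in replicates 1 and 2 alone and 49 in each of the other pairs of replicates, and the count of higher genes was 1, 14 and 4 in replicates 1 and 2, 3 and 4, and 5 and 6. Over all genes these pairs, in the same order, had 3356 of 16043, 2944 of 15887 and 1514 of 16025 lower. Higher were 924, 3637 and 1428 of all genes, so the background moved between pairs too. Whole cells are the reference here, because an mRNA bound to membranes is low in cytosol by itself: over cytosol, 102 Tmem genes were higher in nucleus (42.5% of all genes) and 10 lower (21.2%).

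Of the 4 genes lowest in nucleus, 3 were also among the 8 highest in membrane. Tmem59 had 45.9, 78.4 and 112 CPM in nucleus and 147, 189 and 299 CPM in whole cells, without overlap (-1.24 ± 0.11, adjusted p = 1.10e-14, edgeR). Tmem109 had 8.65, 11.2 and 18 CPM in nucleus and 11.8, 28.4 and 39.8 CPM in whole cells, with some overlap (-1.22 ± 0.15, adjusted p = 6.51e-10), and Tmem97 stood at -1.24 ± 0.11 (adjusted p = 6.22e-15). Lowest of all was Tmem98, a protein that binds a transcription factor of myelin genes, at 0.512, 3.11 and 4.77 CPM in nucleus and 2.91, 7.67 and 11.2 CPM in whole cells, where the ranges overlapped (-1.36 ± 0.30, adjusted p = 0.000172).

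By class, 47 of the 81 genes with a membrane enrichment of at least 3 were lower in nucleus and none higher, with a median of -0.67, and 4 of the 28 genes below 1.5 were lower and 3 higher, with a median of -0.13. Whole cells contain the RNA of the membrane, so membrane enrichment and nucleus over whole cells are not independent, and nothing further is read from these counts. A high enrichment did not fix the difference, since 34 of the 81 genes had no call and the highest stood at 0.38. Among the other genes called higher in membrane, 1508 of 3756 were lower in nucleus and 260 higher, with a median of -0.42.

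The 3 genes higher in nucleus were Tmem191c, Tmem81 and Tmem199. Tmem191c had 20.6, 29.5 and 52.4 CPM in nucleus and 9.70, 15.8 and 23.5 CPM in whole cells (0.96 ± 0.15, adjusted p = 4.76e-07, edgeR), and overlaps Gm49573 on the same strand. Tmem81, known from the fusion of sperm and egg, had 13.8, 22.9 and 30.9 CPM in nucleus and 9.39, 11.9 and 20.7 CPM in whole cells (0.86 ± 0.12, adjusted p = 1.46e-08). Tmem199 had 55.4, 72.9 and 86.5 CPM in nucleus and 34.2, 47.4 and 63.5 CPM in whole cells (0.61 ± 0.08, adjusted p = 5.88e-09). The ranges of all 3 overlapped, but the nucleus was higher in 16 of 16 cultures for each.

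Of these calls, those of Tmem191c and Tmem199 depended on the replicates. Tmem191c was not called in replicates 1 and 2 alone (0.49) or in replicates 5 and 6 alone (0.26). Tmem199 was not called in the same pairs of replicates (0.42 in both), without replicate 4 (0.45) or with all 72 libraries (0.49). Tmem245, whose intron hosts the microRNA miR-32, was higher in nucleus in 14 of 16 cultures, with 129, 314 and 458 CPM against 76.9, 140 and 391 CPM in whole cells. It had no call (0.57 ± 0.25, adjusted p = 0.0567), whereas with the replicate as a block it was called at 0.70. Intronic T positions made up a median of 23.9% of T positions of Tmem genes in the nucleus, but 10.3% for Tmem191c and 0 for Tmem81, and rho between this share and the nuclear difference was 0.0212 across Tmem genes. Tmem81 has little intron to count, with 2018 exon bases within chr1:132506230-132508639, and missing intron counts were taken as 0. Its value of 0 therefore cannot show whether intronic RNA was present.

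The share of new RNA was taken as the T to C count over the T count of a whole gene, divided by the conversion rate of the library, and tested for genes with at least 400 T positions in every library. Of the 141 Tmem genes 125 passed, and 16 did not, among them Tmem132a, Tmem88 and Tmem37. All 16 were called higher in membrane reads, so that 102 of those 118 genes have shares. By class, 67 of 81 genes with an enrichment of at least 3 passed, and all 28 below 1.5. The median share of the 125 genes was higher at 120 min than at 15 min in every library of each fraction, but did not rise at each step. In cytosol it was 1.72% to 2.20% at 15 min, 4.87% to 5.51% at 30 min, 14.9% to 35.9% at 60 min and 48.2% to 49.5% at 120 min. In membrane it was 1.23% to 1.42%, 1.93% in both replicates, 9.85% to 15.4% and 34.3% to 39.1% at the same times. The nucleus had 2.24% to 2.90%, 7.71% to 10.4%, 24.1% to 30.0% and 49.0% to 51.5%. At 20 min the membrane had 1.54% to 3.07% and the nucleus 4.12% to 13.9%, so that some libraries of 20 min lay above those of 30 min. At 40 min the cytosol had 8.72% to 9.02%, the membrane 5.30% to 5.43% and the nucleus 18.2% to 19%. The median of the Tmem genes was above that of all genes in 16 of 16 cytosol libraries, in 8 of 16 membrane libraries, in 12 of 16 nucleus libraries and in 8 of 16 whole-cell libraries. Conversion rates were 5.83% to 8.29% at 60 min in replicates 3 and 4 and 2.38% to 3.99% in replicates 5 and 6, and dose and replicate pair cannot be told apart at this time.

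Where shares of new RNA differed between the cytoplasmic fractions, Tmem genes had the lower share in membrane. The share was lower in membrane for 43 of 125 genes, against 8.79% of 11575 genes tested, and higher for 0, against 1.57% (limma on log2(share + 0.01), averaged over labeling times, adjusted p under 0.05 and absolute difference over 0.5). At an unadjusted p under 0.05 the share was lower for 64 and higher for 0 genes, and no other tool was run on shares. The median log2 difference was -0.50, against -0.01 over all genes. Without replicate 2, 28 genes were lower, and without replicate 6, 1 was higher. The share of Tmem genes that were lower in membrane ran from 46.4% to 93.6% over the 16 cultures, and over all genes from 34.1% to 82.2%.

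Tmem30a showed the widest gap. At 60 min its shares in replicates 3 to 6 were 24.9%, 19.7%, 31.5% and 41.8% in cytosol and 9.01%, 5.93%, 9.75% and 9.55% in membrane. At 120 min they were 48.4% and 41.0% in cytosol and 24.1% and 24.1% in membrane, and at no library of these times did the fractions overlap. The log2 difference was -1.63 ± 0.18 (adjusted p = 2.33e-09, limma), from 5379 to 21266 T positions per library in cytosol and 47776 to 169299 in membrane. Tmem59 had 13.6%, 9.98%, 18.7% and 18.6% in cytosol and 5.48%, 4.19%, 8.34% and 6.87% in membrane at 60 min (-1.23 ± 0.15, adjusted p = 3.10e-08). For Tmem43, a nuclear envelope protein mutated in a heart muscle disease, the shares at 60 min were 30.9%, 31.4%, 60.3% and 62.7% in cytosol and 14.7%, 15.2%, 20.5% and 16.1% in membrane (-1.32 ± 0.17, adjusted p = 5.55e-08).

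For Tmem97 the fractions stood in a different order at 20 and at 120 min. At 20 min its shares in replicates 1 to 4 were 10.6%, 12.6%, 6.20% and 17.1% in cytosol and 1.75%, 2.38%, 4.45% and 4.5% in membrane. At 120 min they were 37.2% and 39.9% in cytosol and 54.9% and 47.9% in membrane, so that the membrane was then the higher. Averaged over the times the difference was -1.07 ± 0.17 (adjusted p = 2.93e-06, limma), and the change of the difference with time was not tested. The 20 min values come from replicates 1 to 4 at 500 µM and the 120 min values from replicates 5 and 6 at 100 µM, so time, dose and replicate cannot be told apart here.

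By place, shares were lower in membrane for 3 of 3 nuclear envelope genes (median -1.17), 8 of 14 genes of the Golgi, endosomes and lysosomes (-0.68), 5 of 12 ER genes (-0.61), 3 of 8 ciliary genes (-0.60) and 0 of 11 mitochondrial genes (-0.09), against 8.79% of all genes. None of the mitochondrial genes had an unadjusted p under 0.05 in limma. The ciliary count was 1 without replicate 1, 2 without replicate 2, 4, 5 or 6, and 5 without replicate 3 or with the replicate as a block. Tmem126a may stand for the last group. Its shares at 60 min were 3.89%, 4.00%, 7.81% and 7.92% in cytosol, 5.34%, 4.58%, 5.00% and 5.34% in membrane and 18.6%, 10.9%, 16.2% and 14.5% in nucleus. Cytosol and membrane overlapped and the nucleus lay above both, with a membrane over cytosol difference of 0.01 ± 0.20 (adjusted p = 0.988). Tmem258, an ER gene of modest membrane excess, also had even shares: at 120 min 7.87% and 7.19% in cytosol, 7.27% and 6.19% in membrane and 9.93% and 10.1% in nucleus (-0.04 ± 0.16, adjusted p = 0.956).

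**Figure D4:**
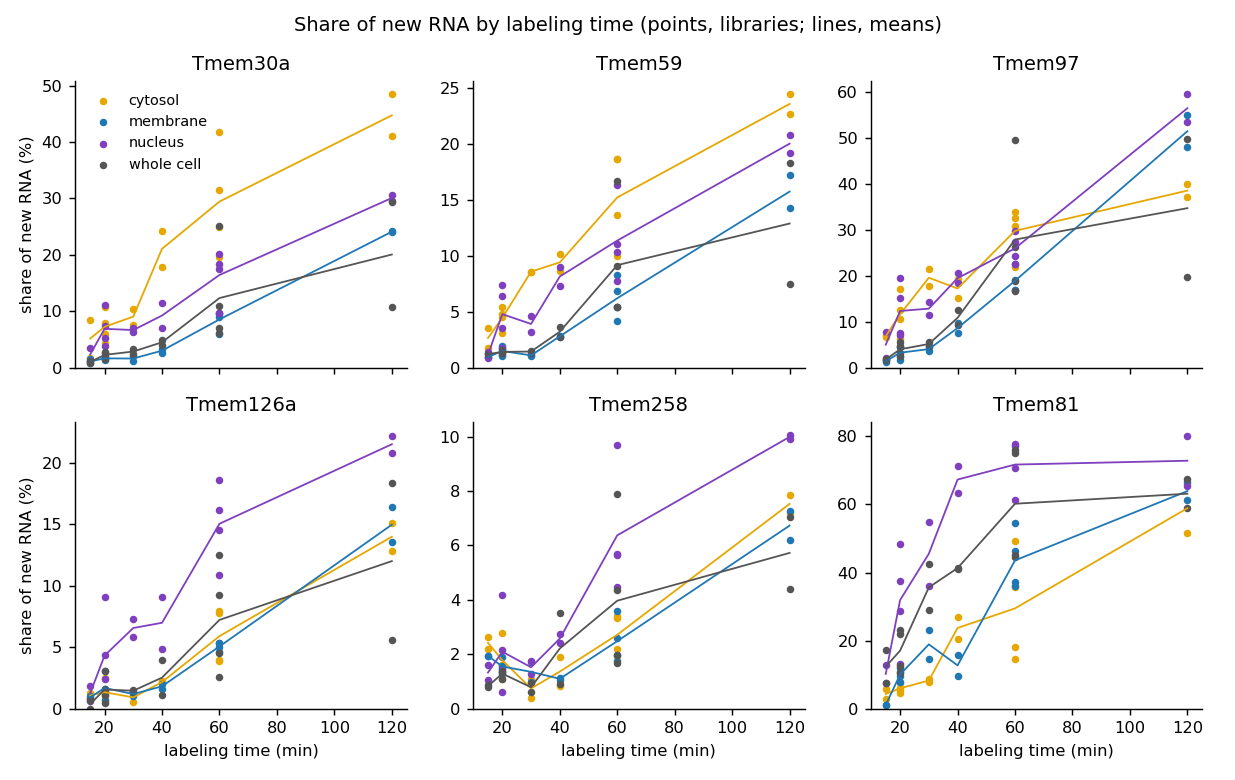
Share of new RNA in percent (y axis, scaled per panel) against labeling time in min (x axis) for 6 Tmem genes, with points for libraries and lines through the means of cytosol, membrane, nucleus and whole cells. Cytosol lies above membrane for Tmem30a and Tmem59 from 60 min on, cytosol lies below membrane at 120 min for Tmem97, and cytosol and membrane overlap at 60 min for Tmem126a, Tmem258 and Tmem81.

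The gap in shares grew with the excess of reads in membrane. Of 102 share-tested Tmem genes higher in membrane reads, 42 had a lower share in membrane and the median was -0.58, and the other was Tmem199, among the 18 genes without a read call. Its call was lost without replicate 1 (-0.47) and when other single replicates were left out. Across Tmem genes with both values Spearman's rho was -0.623 and Pearson's r was -0.608, from fractions that share libraries. Other genes higher in membrane had a lower share in 926 of 2103 cases and a higher one in 6, with a median of -0.55. Tmem101, chosen after its value was seen, came next to Tmem30a with -1.51. The highest value, 0.72 for Tmem42, was not called.

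**Figure D5:**
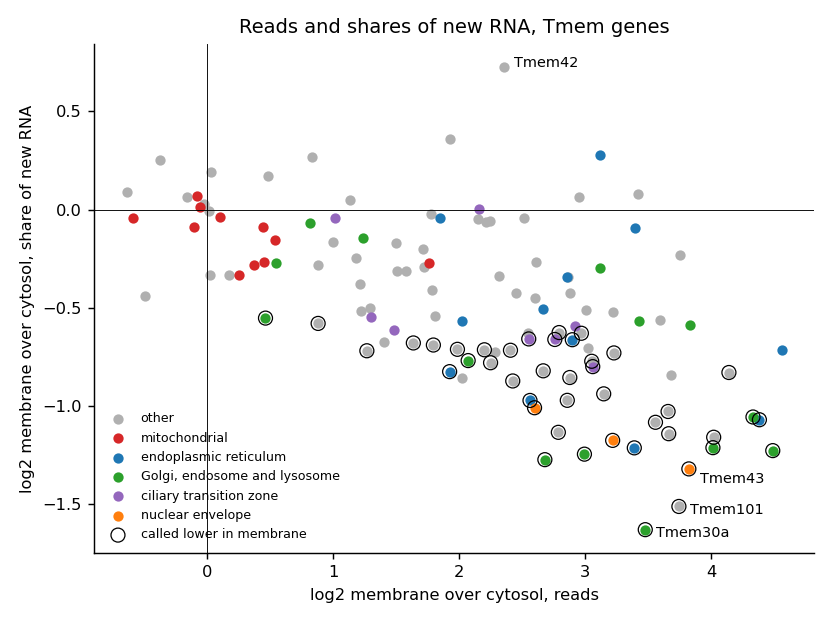
Log2 membrane over cytosol difference in the share of new RNA (y axis) against that in reads (x axis) for Tmem genes with both values, coloured by known place, with rings around genes called lower in share. Points fall from left to right (Spearman's rho -0.623), mitochondrial genes gather near 0 on both axes, and Tmem30a is lowest at -1.63.

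In the nucleus 66 of 125 Tmem genes had a higher share of new RNA than in cytosol, against 73.9% of all genes, and 3 had a lower one, against 0.812% (same limma fit). The median log2 difference was 0.60, below the 0.86 of all genes. Among the other genes called higher in membrane reads, 840 of 2103 had a higher share in nucleus than cytosol and 70 a lower one. Their median was 0.41, so these traits are not particular to Tmem genes. The 3 lower genes were Tmem30a, Tmem51 (-0.58 ± 0.23, adjusted p = 0.0189) and Tmem168 (-0.56 ± 0.20, adjusted p = 0.00956), all of them among the genes with a lower share in membrane too. Both counts moved with the pseudocount, to 37 higher and 0 lower at 0.05.

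Between genes, whole-cell shares at 60 min ran from a few percent to over 60%. Highest was Tmem185b, with 56.4%, 47.8%, 69.5% and 84.0% in replicates 3 to 6 (mean 64.4% ± 15.8, SD, n = 4, and 57.9% ± 10.9 without replicate 6, n = 3). Tmem81 followed with 44.4%, 45.2%, 75.1% and 76.0% (60.2% ± 17.7, and 54.9% ± 17.5 without replicate 6), then Tmem136 (58.7% ± 19.7 and 49.7% ± 9.83) and Tmem245 (56.5% ± 19.9 and 47.7% ± 11.2). These SDs hold shifts between libraries that the genes share, as the median over all genes ran from 11.15% to 37.44% in these libraries. The 4 genes were not compared within libraries, so whether they differ was not tested. Lowest were Tmem258 (3.97% ± 2.87 and 2.66% ± 1.47), Tmem147 (5.70% ± 3.95 and 3.92% ± 2.13), Tmem160 (7.21% ± 4.22 and 5.22% ± 1.74) and Tmem126a (7.23% ± 4.48 and 5.47% ± 3.39), and these were not tested against each other either. Without replicate 6 the lowest 4 were Tmem258, Tmem14a, Tmem147 and Tmem107, and the highest 3 stayed in place.

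By class, the 67 share-tested genes with a membrane enrichment of at least 3 had a higher median share than the 28 below 1.5 in 11 of 16 cytosol libraries. In membrane, nucleus and whole cells they had the lower median in all 16 libraries of each. In the nucleus Tmem81 was among the fastest, with 77%, 61.4%, 77.8% and 70.6% at 60 min.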

How the data were processed

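RNA of 72 libraries, 18 for each of 4 fractions, was analysed, and 64 entered the main results. Reads were aligned by the authors to mm10 (STAR 2.7.6), and the deposited gene counts are unnormalized HTSeq 0.11.1 output. The submitters' processing notes also name RSEM 1.3.3. Counts of T and of T to C positions per gene were deposited by the authors without normalization. The authors give 1 conversion rate per library, as a fraction, and the deposited ratio of T to C over T, divided by this rate, was recomputed within 1.21e-13. Entries that name no gene held 30.4% to 48.8% of all counts and stayed out. Of the gene identifiers, 99.6% were matched to GENCODE vM21.

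Reads were tested in R 4.3.3 with the quasi-likelihood test of edgeR 4.0.16, after filterByExpr and TMM, with all 4 fractions fitted together, and shares with limma 3.58.1 on log2(share + 0.01), which understates changes of low shares. DESeq2 1.42.0 was an alternative. The limits for a call were an adjusted p of 0.05 together with a log2 difference of 0.5 in either direction. Both fits were tested on simulated data in which every library was drawn independently. Such data cannot show error rates where libraries share a culture or a replicate. Enrichment was the ratio of mean length-normalized expression in membrane over cytosol, with limits of 1.5 and 3. Hydropathy was scored on translations of GENCODE vM21 coding sequences, in place of RefSeq proteins as planned. Fractions with the same replicate number and time come from the same culture by the methods: deviations from group means correlated at 0.433 to 0.785 between cytosol and membrane, and at 0.186 to 0.758 between nucleus and whole cells. P-values of the main fits do not use this pairing. They measure the spread between libraries of a fraction, and for shares between libraries of a fraction and time. The 16 cultures come from 6 replicates that gave several cultures each, and the main fits treat all libraries as independent.

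Genes were named by rule: the 8 highest and 8 lowest in membrane over cytosol, the 4 highest and lowest in nucleus over whole cells and in whole-cell share at 60 min, 3 on each side of the T limit, and members of the place lists. Others were named after their values were seen. The members and lists were chosen with earlier results of these data known. Scaling by library size and leaving out single replicates for whole-cell shares were alternatives chosen after seeing the data. Without molecular identifiers, reads are not independent molecules.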

Additional observations from a re-analysis of the deposited data

Results flagged for a closer look

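The membrane enrichment of Tmem37, the ratio of length-normalized expression in membrane over cytosol, was 43.6 in replicate 3, while the other 5 replicates lay between 11.8 and 20.9. The gap to the nearest replicate was 0.714 of the whole range of the 6 replicates, above the limit of Dixon's test. Of 52 groups of replicates examined this was the only one beyond its limit, and chance takes about 1 in 20 groups beyond it. Tmem37 had 0.108 to 1.79 CPM in cytosol, so that its ratio rests on few cytosolic reads.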

How the results depend on the processing

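The count of Tmem genes higher in membrane reads stayed between 113 and 123, around 118, under every alternative run, and the enrichment counts between 78 and 87 (at least 3) and between 26 and 28 (below 1.5). Genes lower in membrane numbered 4 with scaling by library size, 0 in replicates 1 and 2 alone, and 2 to 4 when 1 replicate was left out (4 without replicate 2 or replicate 5). In nucleus over whole cells, higher genes numbered 7 with scaling by library size, 14 in replicates 3 and 4 alone, 1 in replicates 1 and 2 alone and 2 to 5 with 1 replicate left out. Lower genes numbered 98 in replicates 1 and 2 alone and 50 to 79 with 1 replicate left out. The nuclear counts over all genes also moved between the pairs of replicates. For the share in membrane over cytosol, leaving out 1 replicate gave 28 to 53 lower and 0 to 1 higher genes. For the share in nucleus over cytosol it gave 56 to 68 higher and 2 to 4 lower genes, a pseudocount of 0.05 gave 37 and 0, and times of 30 min and longer gave 5 lower. The cause was not tested. With the replicate as a block, the counts were 118 and 2 for membrane reads, 4 and 55 for nuclear reads, 0 and 51 for shares in membrane and 67 and 3 for shares in nucleus (higher and lower). With the culture as a block they were 117 and 2, 4 and 56, 0 and 50, and 67 and 3. Tmem245 gained its nuclear call under either block and Tmem160 lost its membrane call under the culture block (0.49). With all 72 libraries 80 genes were lower in nucleus. The mean of the median whole-cell share at 60 min was 22.6%, and 15.9% to 26.0% with 1 replicate left out.

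Values near 0 changed sign. In membrane over cytosol reads, Tmem126a was 0.0749 in replicates 1 and 2 alone and -0.203 to 0.00174 with 1 replicate left out. Tmem126b was -0.201 with scaling by library size, -0.123 in replicates 5 and 6 alone and -0.0661 to 0.142 with 1 replicate left out. Tmem242 was 0.167 in replicates 1 and 2 alone and -0.243 to 0.0151 with 1 replicate left out, Tmem70 was -0.0275 with scaling by library size, and Tmem81 was 0.474 in replicates 3 and 4 alone and -0.266 to 0.021 with 1 replicate left out. In shares at 30 min and longer, Tmem126a was -0.000171, Tmem258 0.0163 and Tmem65 0.0975. With 1 replicate left out these shares ran from -0.0274 to 0.0445 for Tmem126a, from -0.101 to 0.0252 for Tmem258 and from -0.195 to 0.109 for Tmem65. None of these values was called.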
